A study of Arabidopsis thaliana with 4 samples.

Results

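Xyloglucan endotransglucosylase/hydrolase (XTH) and expansin genes encode secreted proteins that loosen the plant cell wall. The members described here are 56 Arabidopsis loci listed by family, 33 XTH genes and 23 expansin genes. The list names genes by family and not by a measured value, but it was chosen with earlier results of these data known. A further 13 expansin genes lie outside it, of which 6 had a row in the count table and 2 were tested. The expansins comprise 18 alpha-expansins (EXPA), the beta-expansins EXPB1 and EXPB3 and the expansin-like genes EXLA1, EXLA2 and EXLB1. Of the 24750 genes in the count table, 52 were members, and XTH1, XTH2, EXPA2 and EXPA20 had no row there. The samples were 2 floral bud libraries and 2 seedling libraries of the wild-type strain Col-0, grown with 16 h of light and 8 h of dark. Seedlings were taken after 14 days on agar plates. Floral buds came from plants moved from the plates to soil for another 3 weeks. Organ, plant age and growth medium therefore change together between the stages, and their parts cannot be told apart. The samples are bulk tissue, so fewer cells of a type and less RNA per cell cannot be told apart either.

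In a growing wall, xyloglucan chains coat and tether the cellulose microfibrils. XTH proteins cut a xyloglucan chain and join the cut end to another chain, or, in some members, to water, and expansins weaken the contacts between the polymers without cutting them, most effectively at acid pH. Both families are large in Arabidopsis, and their members are known for expression in different organs and cell types. The XTH genes fall into groups I, II and III by sequence. Group III includes enzymes known for hydrolysis.

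The active site of an XTH protein is a short stretch with 3 spaced acidic residues, glutamate, aspartate and glutamate, of which the first glutamate is the catalytic nucleophile. A search of the coding sequences found this stretch in 32 of the 33 XTH genes, all but XTH11. The DNA of 6 of them is shown because these genes carried the largest counts or the clearest difference between the stages. Each line gives 30 bases of the coding strand, 5′ to 3′, from the RefSeq annotation of TAIR10.1. Capitals mark the codons of these 3 residues. A further acidic codon just before them, gac or gat, is left in lower case, and XTH9 has aac there.
XTH3: cacgacGAGattGACttcGAGtttctaggg
XTH9: cacaacGAAttcGATtttGAGttcttaggg
XTH4: catgacGAGataGACtttGAGttccttgga
XTH22: tgggacGAGataGATttcGAGtttttaggg
XTH24: tgggatGAGattGATtttGAGttcttgggt
XTH31: cacgatGAGgtcGATatcGAGtttctaggg
They lie at chr3:9127364-9127393 on the plus strand (XTH3), chr4:1416535-1416564 on the plus strand (XTH9), chr2:2764490-2764519 on the plus strand (XTH4), chr5:23307839-23307868 on the minus strand (XTH22), chr4:14820042-14820071 on the minus strand (XTH24) and chr3:16447882-16447911 on the minus strand (XTH31). XTH3 and XTH9, both of group I, differ at 8 of the 30 bases, and XTH3 and XTH31 at 5. The codon tgg opened the stretch in 12 of the 15 group II genes, XTH22 and XTH24 among them, and in none of the group I and group III genes with a match.

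Expansins carry no such site. Their first domain holds a conserved histidine, phenylalanine and aspartate triplet, which was found in 16 of 18 alpha-expansins and both beta-expansins and in none of the 3 expansin-like genes. It is shown for an alpha-expansin that was higher in floral buds, one that was higher in seedlings and a beta-expansin, with the triplet's codons in capitals.
EXPA6: cctagacctCACTTTGATcttgctatgcct
EXPA16: ccacgctctCATTTCGACctcgccatgccc
EXPB3: accagcactCACTTTGACctcagtggtgcc
These stretches lie at chr2:12432880-12432909, chr3:20575556-20575585 and chr4:14001466-14001495, all on the minus strand.

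ONT direct RNA sequencing reads native polyadenylated RNA molecules one by one. The libraries held between 579416 and 796885 estimated counts after rounding, and 3 counts, the smallest number taken as detectable, corresponded to between 3.73 and 5.28 CPM (each count relative to the size of its library) after normalization. Fold changes are seedlings over floral buds. A gene was called a differentially expressed gene (DEG) at a false discovery rate (FDR) below 0.05 and a fold change above 2 in edgeR's quasi-likelihood test over all genes with at least 5 summed counts. The fit took each gene's dispersion from estimates shared across genes, with none of its own, so very small FDR values rest on that model. For any one gene, 2 libraries against 2 allow no exact permutation p smaller than 0.333. A fold change against a stage at 0 in both libraries was computed against 3 counts per library and is a lower bound. A ratio of counts with its exact binomial 95% interval is given where a stage held 1 to 3 counts in all. These limits and intervals cover counting error only. The labelled tissues were compared with marker genes, which were listed with earlier results of these data known. All 5 floral organ markers and all 5 anther and pollen markers were higher in floral buds, and AP1, AP3, AG, A9, MS2, LAP5 and VGD1 were at 0 in both seedling libraries. Both leaf photosynthesis markers were higher in seedlings, and their summed level in floral buds was 3463 to 3676 CPM against 19575 to 20133 CPM in seedlings.

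Of the 52 members with a row, 47 were tested, and 26 of these were DEGs. The share of all 18647 tested genes called was 19.8%. Most XTH DEGs were higher in seedlings, while the expansin DEGs went both ways and 11 of the 19 expansins tested were not called. In seedlings 16 XTH genes and 3 expansins were higher, and in floral buds 2 XTH genes and 5 expansins were higher. Over all tested genes, 9.52% were called with the higher level in seedlings and 10.3% with the higher level in floral buds. The normalized levels of the stages did not overlap for 38 of the 47 members tested, where 57.8% of all tested genes did not overlap. The median log2 fold change was 1.60 over the 28 XTH genes tested and -0.15 over the 19 expansins tested, beside -0.06 over all tested genes. With members at 0 in a stage set at their bound, and members at or under 3 counts in every library set at no change, the medians were 1.39 and -0.15. When 10 counts were required in each library, members at or near 0 in a stage were left out and 25 members were tested. Of these, 8 were higher in seedlings, all of them XTH genes, and 6 were higher in floral buds, 1 XTH gene and 5 expansins. Over all genes, 1037 of 7195 tested were called at this setting.

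**Figure D1:**
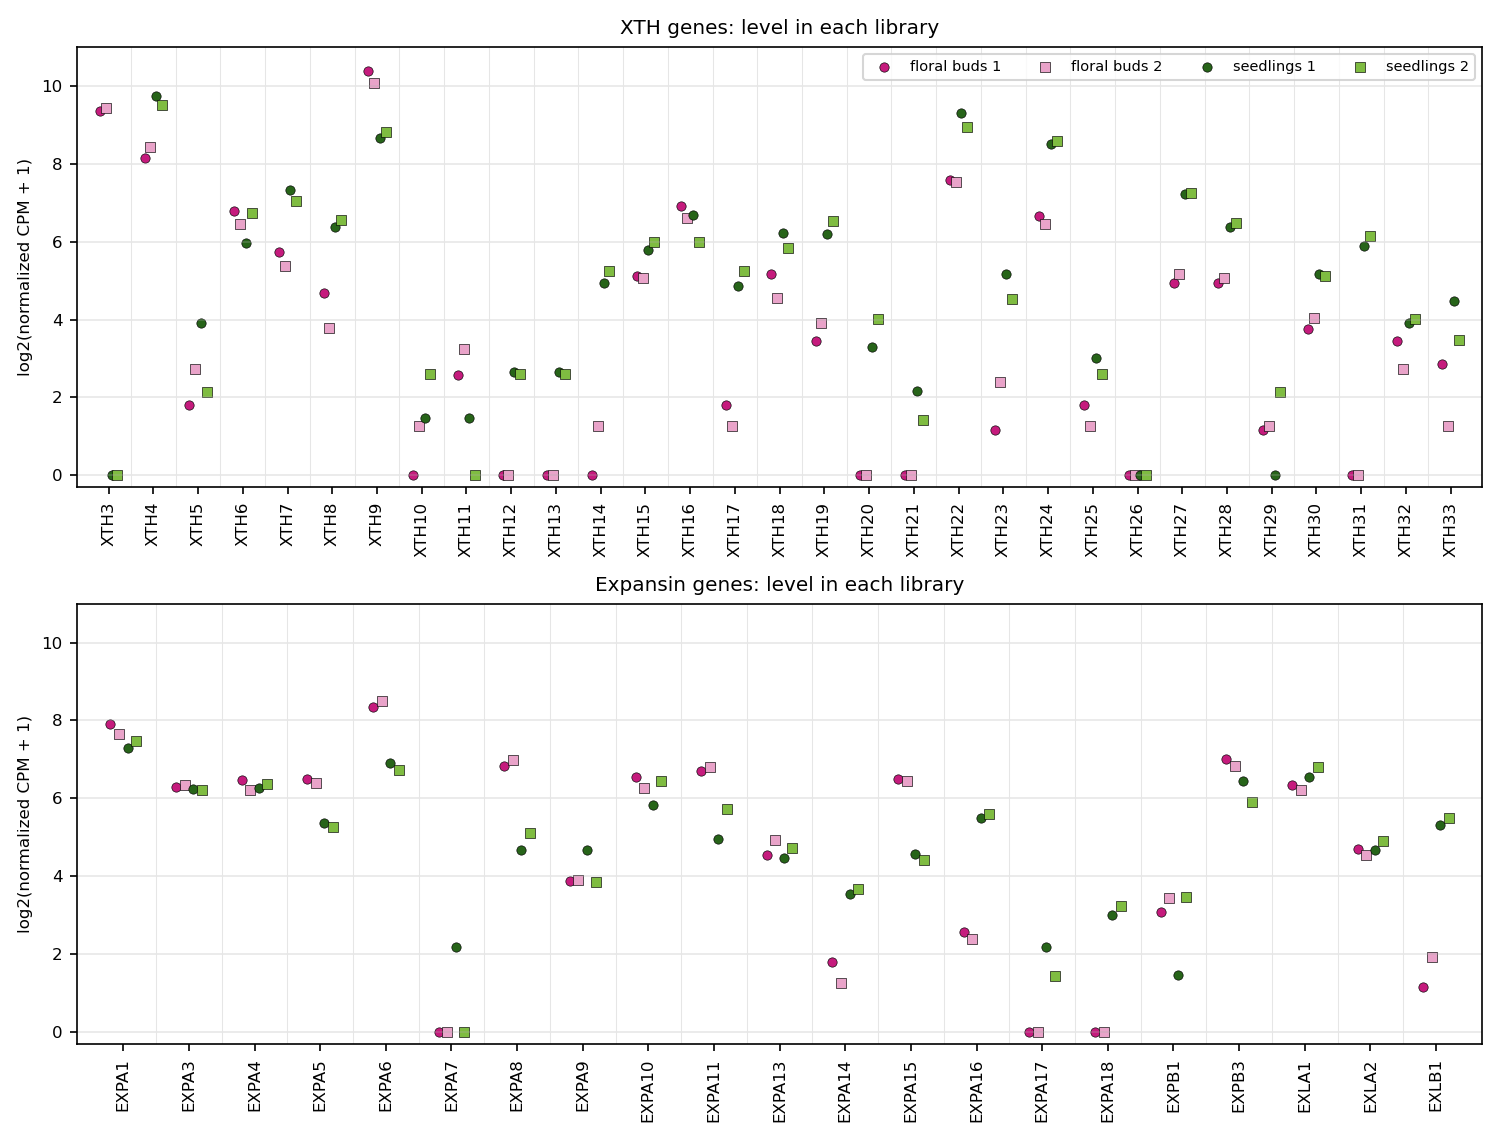
Level of each member with a row, as log2(normalized CPM + 1) on the vertical axis, in the 2 floral bud libraries (pink) and the 2 seedling libraries (green), 1 point a library. XTH3 stands at 660 and 688 CPM in floral buds and at 0 in seedlings, while most other XTH genes have their green points above the pink ones.

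**Figure D2:**
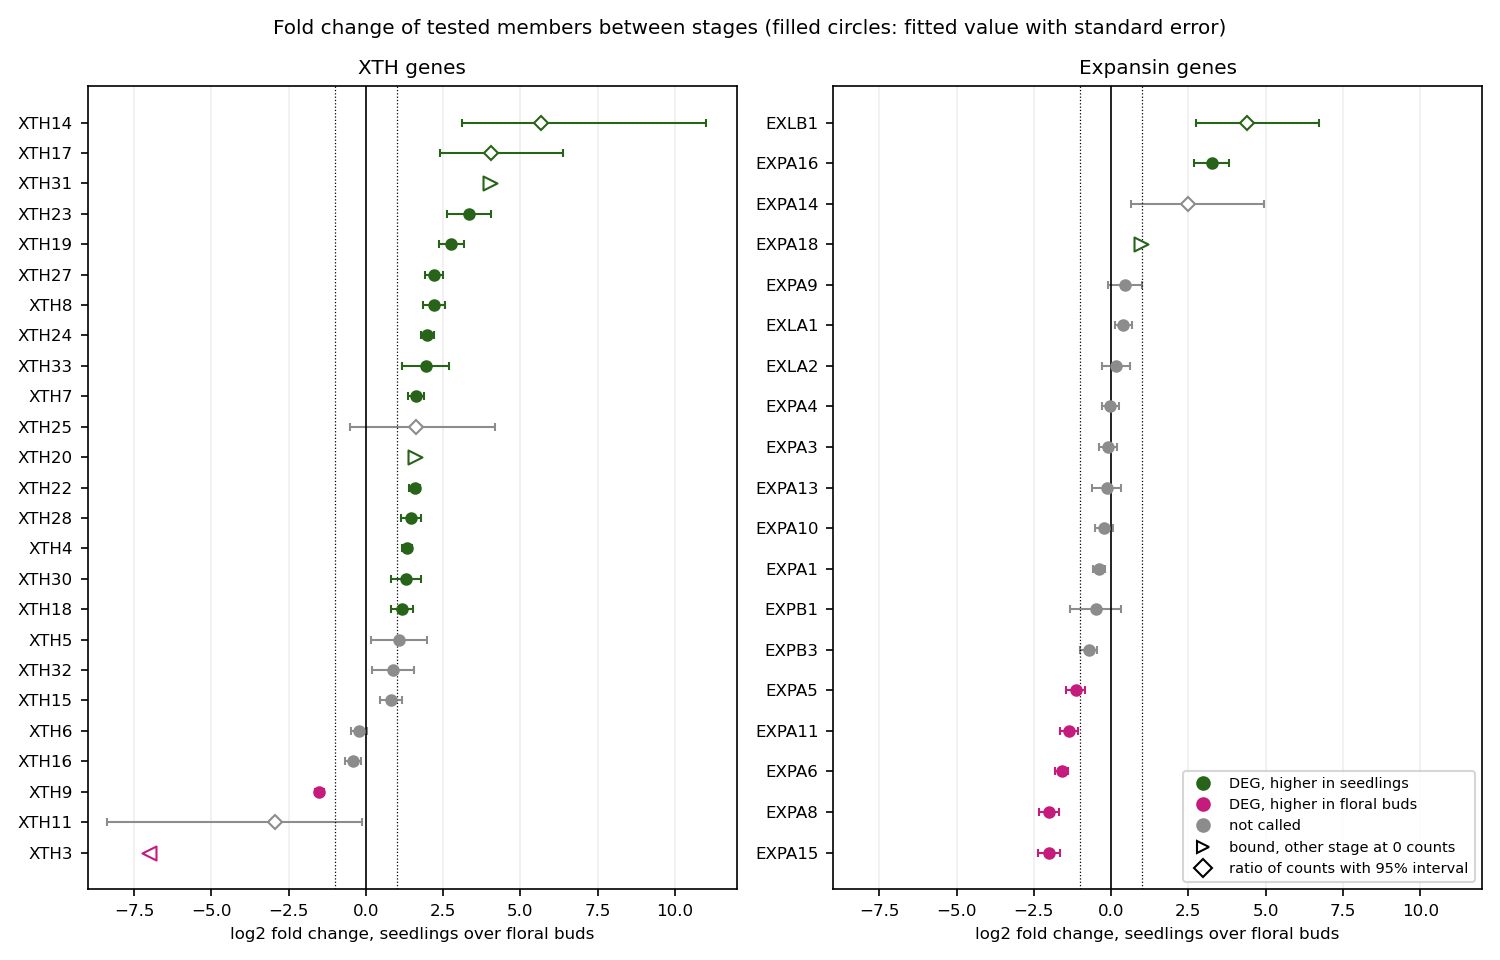
Log2 fold change of seedlings over floral buds for the tested members, except XTH10, XTH12 and XTH13, which had at most 3 counts in every library. Filled circles are fitted values with their standard error, open triangles are bounds against a stage at 0, open diamonds are ratios of counts with their 95% interval, and dotted lines mark a fold change of 2. DEGs higher in seedlings (green) are 16 XTH genes and 3 expansins, and DEGs higher in floral buds (pink) are 2 XTH genes and 5 expansins.

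The 2 XTH genes that were higher in floral buds were also the 2 most abundant members there. XTH3 (AT3G25050), known as an enzyme that can also act on cellulose, had 531 and 488 counts in the floral bud libraries and 0 in both seedling libraries. Its level in floral buds was higher by at least 130-fold (FDR 1.4e-117). Its normalized level there was 674 ± 19.4 CPM (SD, n = 2). XTH9 (AT4G03210), known for expression in inflorescence apices, had 1068 and 770 counts in the bud libraries against 228 and 265 in the seedling libraries. It was present in every library, and each floral bud library was above both seedling libraries. The log2 fold change was -1.51 with a standard error (SE) of 0.15 (FDR 3.4e-22). XTH9 had the highest mean normalized level of any member in floral buds, at 1206 CPM, with XTH3 next. In seedlings XTH9 stood at 425 CPM.

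In seedlings the order was different. XTH4 (AT2G06850), a group I gene also called EXGT-A1, stood first at a mean of 792 CPM, followed by the group II gene XTH22 at 560 CPM. XTH9 came next at 425 CPM, ahead of the group II gene XTH24 at 372 CPM. XTH4 had 229 and 245 counts in the bud libraries against 486 and 431 in the seedling libraries, a log2 fold change of 1.33 (SE 0.16, FDR 1.4e-15). XTH22 (AT5G57560), also called TCH4 and known as a gene induced by touch, had 153 and 130 counts in the bud libraries against 358 and 289 in the seedling libraries (log2 fold change 1.58, SE 0.17, FDR 6.7e-18). XTH24 (AT4G30270), also known as MERI5, had 81 and 61 counts in the bud libraries against 206 and 226 in the seedling libraries. For XTH4, XTH22 and XTH24 both seedling libraries were above both floral bud libraries, and the log2 fold change of XTH24 was 1.99 (SE 0.20, FDR 4.7e-21). The touch-response genes TCH2 and TCH3, which were fixed as a list with XTH22 in mind, were not called. TCH3, a calmodulin-like gene, had 336 and 285 counts in the bud libraries against 218 and 173 in the seedling libraries (log2 fold change -0.28, FDR 0.25).

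After normalization all XTH genes together summed to 3052 and 2808 CPM in the floral bud libraries and 3357 and 3155 CPM in the seedling libraries, and both seedling sums were above both floral bud sums. That separation rested on the normalization factors, since without them the XTH genes took 3078 and 2976 CPM in the floral bud libraries and 3289 and 3012 CPM in the seedling libraries, and the stages overlapped. The remaining sums of this paragraph are without these factors, while the sums given for marker gene lists are normalized. XTH3 and XTH9 held most of the floral bud total. XTH9 took 43.5% and 38.6% of the XTH level in the floral bud libraries and XTH3 took 21.6% and 24.5%. In the seedling libraries XTH9 took at most 14.2%, and XTH4 had the largest share of any XTH gene at 25.5% and 23.1%. Without XTH3 and XTH9, a pair set apart after their values were seen, the XTH total was 1072 and 1096 CPM in the bud libraries and 2894 and 2584 CPM in the seedling libraries. The expansins together took 1513 and 1551 CPM in the bud libraries and 936 and 979 CPM in the seedling libraries, with no overlap. XTH counts were 2.03 and 1.92 times the expansin counts in the bud libraries and 3.51 and 3.08 times in the seedling libraries.

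**Figure D3:**
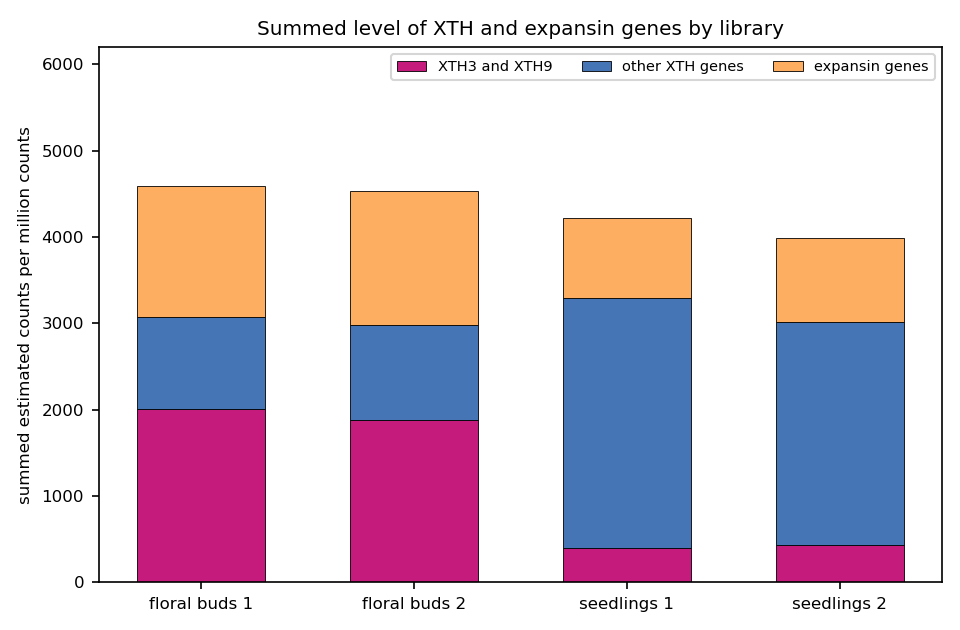
Summed CPM of the estimated counts in each library for XTH3 and XTH9 together (pink), the other XTH genes (blue) and the expansins (orange), 1 bar a library. The blue part is 1072 and 1096 CPM in the bud libraries and 2894 and 2584 CPM in the seedling libraries, and the orange part is 1513 and 1551 against 936 and 979.

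Among the 9 tested group I genes, seedlings had more of XTH4, XTH7 and XTH8 and floral buds more of XTH3 and XTH9. XTH7 (AT4G37800) had 42 and 29 counts in the bud libraries against 90 and 77 in the seedling libraries (log2 fold change 1.62, SE 0.27, FDR 4.1e-08). XTH8 (AT1G11545) had 20 and 9 counts in the bud libraries against 47 and 55 in the seedling libraries (log2 fold change 2.20, SE 0.36, FDR 1.9e-08). Neither gene overlapped between the stages. XTH5, XTH6, XTH10 and XTH11 were not called. XTH6 had 35 to 88 counts in each library, and the others had at most 8 in any.

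All 8 DEGs of group II were higher in seedlings, of 13 tested. Besides XTH22 and XTH24 they were XTH14, XTH17, XTH18, XTH19, XTH20 and XTH23. Several of these are known as root genes, and XTH19 and XTH20 also for the healing of cut stems. XTH20 (AT5G48070) was at 0 in both floral bud libraries and had 5 and 9 counts in seedlings, so it was at least 3.02-fold higher there (FDR 8.4e-04). XTH14 (AT4G25820) had 0 and 1 counts in the bud libraries against 17 and 22 in the seedling libraries, a ratio of 50.9 (95% interval 8.62 to 2063, FDR 8.1e-09). XTH17 (AT1G65310) had 2 and 1 counts in the bud libraries against 16 and 22 in the seedling libraries, a ratio of 16.5 (5.25 to 83.8, FDR 5.6e-07). These 3 genes were thus at or near the detection limit in floral buds and at 5 to 22 counts in each seedling library. The call of XTH20 was lost without seedlings replicate 2 (FDR 0.058). The fitted log2 fold change of XTH14 was 4.38 without floral buds replicate 1 and 7.48 without floral buds replicate 2, and the call held in both.

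The other group II DEGs were present in every library. XTH19 (AT4G30290) had 8 and 10 counts in the bud libraries against 41 and 54 in the seedling libraries (log2 fold change 2.76, SE 0.40, FDR 1.5e-10). XTH23 (AT4G25810) had 1 and 3 counts in the bud libraries against 20 and 13 in the seedling libraries (log2 fold change 3.34, SE 0.70, FDR 2.1e-05). Its log2 fold change ranged from 2.69 without floral buds replicate 1 to 4.35 without floral buds replicate 2, and the call held in both. XTH18 (AT4G30280) had 28 and 16 counts in the bud libraries against 42 and 33 in the seedling libraries (log2 fold change 1.16, SE 0.36, FDR 0.0069). The XTH18 call was lost without floral buds replicate 2 (log2 fold change 0.92, FDR 0.11), without seedlings replicate 1 (0.95, FDR 0.12) and with DESeq2 (FDR 0.16). XTH16, the group II gene with the third most counts, was not called, with 97 and 69 counts in the bud libraries against 58 and 37 in the seedling libraries. The remaining group II genes XTH12, XTH13, XTH15, XTH21, XTH25 and XTH26 were not called or not tested. XTH15 had 23 to 37 counts in each library, the other tested genes at most 4, XTH21 had 3 in all, and XTH26 was at 0 in every library.

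In group III, 5 of 6 tested genes were DEGs, all higher in seedlings. XTH31 (AT3G44990), known as a xyloglucan hydrolase of roots, was at 0 in both floral bud libraries and had 33 and 41 counts in seedlings. It was at least 16.0-fold higher in seedlings (FDR 2.1e-18). XTH27 (AT2G01850), known from developing leaf veins, had 24 and 25 counts in the bud libraries against 84 and 89 in the seedling libraries (log2 fold change 2.20, SE 0.29, FDR 8.4e-13). XTH28 (AT1G14720), known for a part in stamen filament growth, had 24 and 23 counts in the bud libraries against 47 and 52 in the seedling libraries (log2 fold change 1.45, SE 0.33, FDR 9.9e-05). A test against a fold change of 2 lost the XTH28 call (FDR 0.16).

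Of the remaining group III genes, XTH30 and XTH33 passed the test by little. XTH30 (AT1G32170) had 10 and 11 counts in floral buds and 20 in both seedling libraries (log2 fold change 1.30, SE 0.48, FDR 0.032). Its call was lost when any of the 4 libraries was left out, with FDR values of 0.19 and 0.069 without floral buds replicates 1 and 2 and of 0.11 and 0.091 without seedlings replicates 1 and 2. XTH33 (AT1G10550), whose product is known to be held at the plasma membrane, had 5 and 1 counts in the bud libraries against 12 and 6 in the seedling libraries (log2 fold change 1.94, SE 0.76, FDR 0.048). Its call was lost without floral buds replicate 2 (log2 fold change 1.32, FDR 0.32) and without seedlings replicate 1 (1.34, FDR 0.46), and the value was 3.28 without floral buds replicate 1. XTH32 had 4 to 9 counts in each library and was not called, and XTH29 had 4 counts in all and was not tested.

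Several group II genes are neighbours on the same strand. XTH12, XTH13, XTH25 and XTH22 lie within chr5:23300321-23308680, XTH24, XTH18 and XTH19 within chr4:14819192-14830224, and XTH23 and XTH14 within chr4:13128394-13131860. In the chromosome 5 cluster XTH22 reached 631 and 489 CPM in seedlings, and its neighbours stayed at or below 7.05 CPM in every library. XTH25, the nearest neighbour of XTH22, had 2 and 1 counts in the bud libraries against 4 and 3 in the seedling libraries, 565 bp away and 69.5% identical in coding sequence. In the chromosome 4 cluster of XTH24, XTH18 and XTH19 each gene was higher in seedlings. XTH18 and XTH19 are 87.6% identical in coding sequence, and XTH17, on chromosome 1, gave a transcript alignment of 90.7% identity with XTH18. No member had another gene at 95% identity over 80% of its transcript, the level set for a near-identical copy. How reads were divided between the similar genes XTH12 and XTH13 (89.4% identical in coding sequence) or XTH17, XTH18 and XTH19 cannot be seen in counts per gene.

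**Figure D4:**
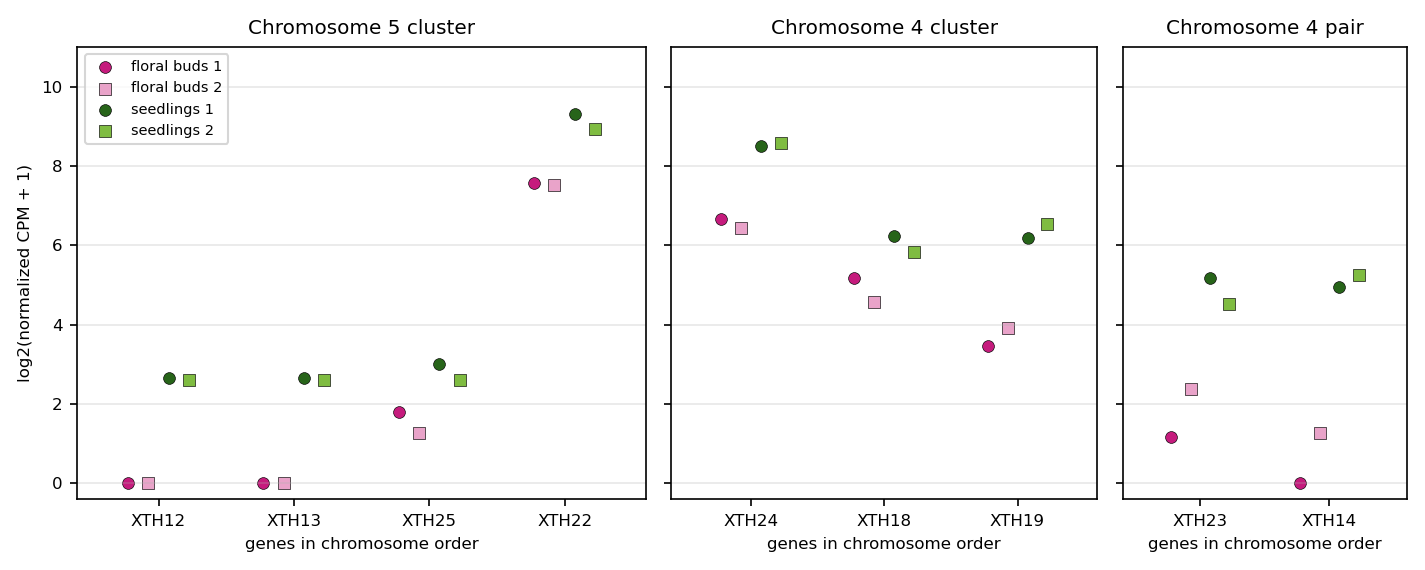
Log2(normalized CPM + 1) of neighbouring group II XTH genes in each library, in chromosome order, with floral buds in pink and seedlings in green. XTH22 stands far above its neighbours on chromosome 5, and for XTH24, XTH18, XTH19, XTH23 and XTH14 on chromosome 4 both seedling points are above both floral bud points.

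Alpha-expansins had more DEGs in the direction of floral buds. Of 14 tested, 5 were higher in floral buds and 2 higher in seedlings. EXPA6 (AT2G28950) had the highest mean normalized level of the expansins in floral buds, at 341 CPM. It had 259 and 256 counts there and 68 and 62 in seedlings (log2 fold change -1.60, SE 0.20, FDR 9.7e-14). EXPA8 (AT2G40610) had 90 and 89 counts in the bud libraries against 14 and 20 in the seedling libraries (log2 fold change -2.01, SE 0.32, FDR 3.8e-09). EXPA15 (AT2G03090) had 72 and 61 counts in the bud libraries against 13 and 12 in the seedling libraries (log2 fold change -2.02, SE 0.36, FDR 2.7e-07). In all 3 genes both floral bud libraries were above both seedling libraries. EXPA11 (AT1G20190) had 83 and 78 counts in the bud libraries against 17 and 31 in the seedling libraries (log2 fold change -1.36, SE 0.30, FDR 6.2e-05), and EXPA5 (AT3G29030) had 72 and 59 against 23 and 22 (-1.15, SE 0.32, FDR 0.0021). The EXPA11 value was -1.01 without seedlings replicate 1 and -1.82 without seedlings replicate 2. DESeq2 did not call EXPA5 (FDR 0.093), and the test against a fold change of 2 called neither.

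The alpha-expansins higher in seedlings were EXPA16 and EXPA18. EXPA16 (AT3G55500) had 4 and 3 counts in the bud libraries against 25 and 28 in the seedling libraries (log2 fold change 3.25, SE 0.56, FDR 1.1e-07). EXPA18 (AT1G62980), which acts in root hairs together with EXPA7, was at 0 in both floral bud libraries and had 4 and 5 counts in seedlings. EXPA18 was at least 1.95-fold higher in seedlings (FDR 0.015), a bound below the fold limit of 2, which its fitted log2 fold change of 5.41 passed. Its call was lost with DESeq2 (FDR 0.15), without floral buds replicate 1 (log2 fold change 5.31) and without seedlings replicate 1 (5.61). Without seedlings replicate 2 it was not tested. EXPA7 had 2 counts in seedlings replicate 1 and none elsewhere and was not tested. EXPA18 overlaps a gene on the opposite strand by 46 bp, and EXPA7 another by 23 bp, where reads were joined to genes without strand. Of 5 tested root hair markers, PRP3 and COW1 were higher in seedlings. The whole list summed to 7.46 and 7.05 CPM in the floral bud libraries and 49.3 and 44.0 CPM in the seedling libraries, and LRX1, PRP3, RSL4 and COW1 were at 0 in both floral bud libraries. PRP3, a wall protein of root hairs, had 12 and 11 counts in seedlings and COW1, needed for root hair growth, had 6 and 4, a call lost with DESeq2 and not tested without seedlings replicate 1. LRX1 had 2 and 4 counts in seedlings and was not called (FDR 0.068). COBL9, with 4 and 2 counts against 4 and 3, and RHD2, with 2 and 3 against 3 and 3, were not called (FDR 0.75 and 0.76). The part of root tissue in the result was not tested.

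The other tested alpha-expansins were not called. EXPA1 (AT1G69530), known in guard cells, had 193 and 141 counts in the bud libraries against 88 and 105 in the seedling libraries. Its log2 fold change was -0.40 (SE 0.20, FDR 0.14). Among the expansins EXPA1 came next after EXPA6 in floral buds, at a mean of 219 CPM, and stood first in seedlings, at 166 CPM. EXPA3, EXPA4 and EXPA10 had between 32 and 74 counts in each library. EXPA9 and EXPA13 had between 8 and 21. EXPA14, known from lateral root emergence, had 2 and 1 counts in the bud libraries against 6 and 7 in the seedling libraries, a ratio of 5.66 (1.56 to 31.0, FDR 0.057). EXPA17 had 3 counts in all and was not tested.

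The beta-expansins were not called. EXPB3 (AT4G28250) had 103 and 80 counts in the bud libraries against 49 and 35 in the seedling libraries, with no overlap of the stages. Its FDR of 0.025 passed the limit and its log2 fold change of -0.73 did not reach a fold of 2, except without seedlings replicate 1, when it was called at -1.02. EXPB1 had 1 to 7 counts in each library. Of the expansin-like genes, EXLB1 (AT4G17030) had 1 and 2 counts in the bud libraries against 22 and 26 in the seedling libraries, a ratio of 20.9 (6.74 to 105, FDR 5.0e-09), and it was called with any library left out. EXLA1, with 52 to 65 counts in each library, and EXLA2, with 14 to 20, were not called. EXLA1 overlaps a gene on the opposite strand by 22 bp and XTH15 one by 382 bp, and these neighbours had at most 32 and 5 counts in any library.

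The sequence just before the gene start was read for all 56 members and for 27443 protein-coding genes, from 250 bases before to 50 bases after the annotated start in TAIR10.1. The motifs searched on both strands were the auxin response element TGTCTC, the brassinosteroid element CGTGTG or CGTGCG, the G-box CACGTG and the root hair element, which can overlap the brassinosteroid element. The 150 bases before the start are shown for the 3 members higher in floral buds that had a match there and for the root hair pair EXPA7 and EXPA18. XTH9, EXPA11 and EXPA15, also higher in floral buds, had no match of any of these motifs. Capitals mark every match, on the strand of the gene, so that a match of the opposite strand appears as its reverse complement.
XTH3: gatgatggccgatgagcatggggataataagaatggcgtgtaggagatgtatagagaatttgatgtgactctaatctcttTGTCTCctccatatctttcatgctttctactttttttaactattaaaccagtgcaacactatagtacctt
EXPA5: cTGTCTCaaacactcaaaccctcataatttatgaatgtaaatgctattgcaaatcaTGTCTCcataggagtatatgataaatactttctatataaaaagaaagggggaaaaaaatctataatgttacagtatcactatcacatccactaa
EXPA6: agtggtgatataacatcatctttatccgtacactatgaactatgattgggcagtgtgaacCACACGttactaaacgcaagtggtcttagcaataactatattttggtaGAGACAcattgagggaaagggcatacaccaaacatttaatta
EXPA7: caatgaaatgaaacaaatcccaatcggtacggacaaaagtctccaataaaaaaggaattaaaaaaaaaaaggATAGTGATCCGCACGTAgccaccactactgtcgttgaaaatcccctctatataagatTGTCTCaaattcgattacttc
EXPA18: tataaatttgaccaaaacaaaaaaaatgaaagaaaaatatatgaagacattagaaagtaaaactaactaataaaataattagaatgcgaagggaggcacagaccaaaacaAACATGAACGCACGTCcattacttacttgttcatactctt
The windows are chr3:9126701-9126850 on the plus strand (XTH3), chr3:11013452-11013601 on the minus strand (EXPA5), chr2:12433797-12433946 on the minus strand (EXPA6), chr1:4276355-4276504 on the plus strand (EXPA7) and chr1:23331413-23331562 on the plus strand (EXPA18).

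TGTCTC was present in 4 of the 7 members higher in floral buds, XTH3, EXPA5, EXPA6 and EXPA8, in none of the 19 higher in seedlings, in 8 of all 56 members and in 14.2% of all promoters. The match of XTH3 begins 70 bases before the start and that of EXPA6 ends 37 bases before it. The match of EXPA8 lies 39 to 44 bases after the start, outside the bases shown. The other members with TGTCTC were XTH6 and EXPA10, not called, and XTH21 and EXPA7, not tested, whose few counts were in seedlings. The root hair element was in 0.867% of all promoters and, among the members, in EXPA7 and EXPA18 only. The brassinosteroid element was in 4 XTH genes and 7 expansins and in 8.19% of all promoters. CACGTG was in no member and in 7.68% of all promoters. These matches are a description of letters and were not tested against the counts.

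Genes that make or trim xyloglucan and cellulose were read from lists for comparison. Of 13 tested xyloglucan synthesis genes, 2 were called higher in seedlings and 1 in floral buds. The xylosyltransferase gene XXT4 had 4 and 1 counts in the bud libraries against 19 and 18 in the seedling libraries (log2 fold change 3.21, FDR 1.1e-05), and the glucan synthase gene CSLC4 had 22 and 32 against 50 and 47 (1.22, FDR 0.0012), a call lost without floral buds replicate 1 and with DESeq2, limma-voom and glmTreat. CSLC12, of the same glucan synthase family, had 7 and 15 counts in the bud libraries against 1 and 3 in the seedling libraries (-2.04, FDR 0.0499, at the limit), and its call was lost in 9 alternatives, among them those without floral buds replicate 2, without seedlings replicate 1 and without seedlings replicate 2. The share of the synthesis genes called was thus 23.1%, close to the 19.8% of all tested genes, and the median log2 fold change of this list was 0.10. Among 5 trimming enzymes, the beta-galactosidase gene BGAL10 was higher in seedlings (1.25, FDR 7.3e-04) and the beta-glucosidase gene BGLC3 higher in floral buds (-1.73, FDR 9.7e-06). The call of BGAL10 was lost without seedlings replicate 1, where its log2 fold change was 0.90, and with DESeq2, limma-voom and glmTreat. That of BGLC3 was lost without floral buds replicate 2 (-1.09) and with limma-voom.

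Cellulose synthase genes of the primary wall were higher in seedlings in 4 of 5 cases, with log2 fold changes of 1.17 for CESA1 (FDR 4.0e-06) and 1.08 for CESA3 (FDR 6.5e-06). These folds lay close to the limit of 2. Without seedlings replicate 1 the number called fell to 2, with 0.94 for both CESA1 and CESA3, and 0 were called when glmTreat tested against that limit. Of the 3 secondary wall genes, only CESA4 was called. It had 12 and 23 counts in floral buds and 0 in seedlings, at least 4.57-fold higher in floral buds. Plasma membrane proton pumps acidify the wall, in which expansins act. AHA2 had 91 and 68 counts in the bud libraries against 202 and 264 in the seedling libraries (log2 fold change 1.94, FDR 5.3e-21), and AHA3 was also higher in seedlings (1.13, FDR 9.8e-04), a call lost with DESeq2 and glmTreat. AHA9, a pump gene known from anthers, had 72 and 73 counts in floral buds and 0 in seedlings, at least 18.6-fold higher in floral buds. The other 3 pump genes were not called. Of 13 expansin genes outside the member list, 6 had a row and 2 were tested, and EXLA3 was higher in seedlings by at least 3.47-fold, with 8 counts in both seedling libraries and 0 in floral buds.

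Marker genes of floral tissue were also higher in floral buds. With only 2 stages, a shared direction cannot show that genes vary together. The floral organ markers summed to 1172 and 1081 CPM in the bud libraries and 10.6 and 5.07 CPM in the seedling libraries, and the anther and pollen markers to 1135 and 892 CPM in the bud libraries and 1.76 and 0 CPM in the seedling libraries. Among them AP3, which specifies petals and stamens, had 205 and 191 counts in floral buds and 0 in seedlings, and the petal and stamen gene PI had 288 and 213 against 2 and 0. VGD1, a pollen pectin methylesterase, had 341 and 279 counts in floral buds and 0 in seedlings, and the tapetum gene A9 had 309 and 176 against 0. Leaf genes were higher in seedlings. The chlorophyll-binding protein gene CAB1 had 2543 and 2169 counts in the bud libraries against 9329 and 9793 in the seedling libraries, and LHCB3 had 414 and 289 against 1785 and 2114. The part of organ composition in the differences between the members was not tested.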

How the data were processed

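ONT direct RNA sequencing was performed on poly(A) RNA from 2 floral bud and 2 seedling samples. Per the methods, base calling was done in Guppy, alignment to the TAIR10 genome in Minimap2 (version 2.17 in the submitters' processing notes) and quantification in TrackCluster. For the assignment to genes, the authors' code takes an overlap of 5% or more on either strand. The authors deposited not normalized, estimated counts for each gene, and 83.8% of those above 0 were not whole numbers (tolerance 1e-06). In a combined table, 3 columns repeated single libraries with identical values. Totals after rounding were 579416 to 796885 per library.

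Rounded counts of genes with at least 5 summed counts entered the quasi-likelihood test of edgeR 4.0.16 in R 4.3.3, with upper-quartile factors, stage as the only term and Benjamini-Hochberg adjustment over all genes. The paper names quantile normalization, for which the upper quartile was taken. SEs were approximated from each log2 fold change and its F. Replicates are biological, as stated in the paper's methods. The fits were tested on simulated counts. Coordinates count from 1, and all 56 loci were found in RefSeq's TAIR10.1 annotation. Copies were searched with blastn 2.17.0.

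The members and gene lists were chosen with earlier results of these data known. Every member is accounted for, with counts for each DEG and for the 8 members with the most counts. From each list at most 2 DEGs a direction with the smallest FDR are named, otherwise the gene with the most counts. Further genes are named where they stood at 0, made up a small count or lay beside a member, which was seen from their values or positions. Alternatives were TMM or library size alone, DESeq2 1.42.0, edgeR's exact test, limma-voom (limma 3.58.1) with full quantile normalization, no count filter, 10 counts in each library, no fold limit, glmTreat with a fold limit of 2, unrounded counts, a block for the replicate number, and leaving out each library.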

Additional observations from a re-analysis of the deposited data

How the results depend on the processing

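All 26 called members kept their direction in every alternative, and 18 kept the call in each that tested them. XTH18, XTH20, XTH28, XTH30, XTH33, EXPA5, EXPA11 and EXPA18 lost it in at least 1. DEGs over all genes numbered 1941 with DESeq2, 2126 with glmTreat against a fold change of 2 and 1037 with at least 10 counts in each library, where 3687 were called, and 2906 to 3307 with a library left out. With 10 counts in each library, fewer genes are tested. The counts were then 8 members higher in seedlings, 8 XTH genes and 0 expansins, and 6 members higher in floral buds, 1 XTH gene and 5 expansins. With glmTreat 3 expansins were higher in floral buds and 3 in seedlings. Leaving out each library gave 15 to 17 members higher in seedlings and 7 to 8 higher in floral buds. Of members not called, 7 changed sign when a library was left out. Without seedlings replicate 1 these were XTH5 (-0.22, range over the libraries left out -0.22 to 1.78), XTH6 (0.11, range -0.66 to 0.11), EXPA9 (-0.027, range -0.027 to 0.83), EXPA10 (0.043, range -0.57 to 0.043), EXPB1 (0.24, range -2.17 to 0.24) and EXPA4 (0.024). EXPA4 also did so without floral buds replicate 1 (0.088, range -0.12 to 0.088) and with no count filter (0.012), and EXPA13 without floral buds replicate 2 (0.081, range -0.35 to 0.081). The causes were not tested.

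The stages share only replicate numbers, the plants differ, and same-numbered libraries did not deviate together (r = -0.066 over 14305 genes). With the replicate block 3095 DEGs were called, with 16 members up in seedlings and 7 up in floral buds, and the calls of XTH30 (FDR 0.059), XTH33 (FDR 0.098) and EXPA18 (FDR 0.074) were lost. Depth limits members near 0. No fold change was given where every library had at most 3 counts.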
